A study of Mus musculus with 12 samples.

Results

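Genes of the defence against reactive oxygen and of iron storage were followed in mouse haematopoietic stem and progenitor cells. They are the superoxide dismutases Sod1 and Sod2, the catalase Cat, the glutathione peroxidases Gpx1 and Gpx4, the peroxiredoxins Prdx1 and Prdx6, the ferritin chains Ftl1 and Fth1, and the haem oxygenase Hmox1. They were chosen by symbol and make up 10 of the 38924 entries of the deposited table. Of these 10, 9 had values above 0. The values of 4 (Cat, Gpx4, Prdx1 and Ftl1) carry exactly the annotated length of the gene. Those of 5 (Sod1, Sod2, Gpx1, Prdx6 and Hmox1) carry another length, which no rule excluded but which does not establish the label. The entry labelled Fth1 was listed at 0 in all 12 libraries, and its label could not be checked.

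The cells came from the bone marrow of male C57BL/6 mice aged 4 to 5 wk and were enriched by depletion with beads against 5 proteins of maturing blood lineages (TER119, Ly-6G, CD3e, CD11b and CD45R). The 6 naive libraries (replicates 1, 2, 3, 7, 8 and 9) held such cells without injection. The 6 brain-recovered libraries (replicates 4, 5, 6, 10, 11 and 12) held cells injected intravenously into mice 24 h after an interrupted and restored blood supply of the brain (cerebral ischaemia and reperfusion, a model of stroke) and isolated from that brain another 24 h later. The labels do not say how cells were told from host cells on recovery, nor whether libraries of a group came from separate animals, so p-values measure the spread between libraries, which may be technical.

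Superoxide dismutases turn superoxide into hydrogen peroxide, Sod1 in the cytosol and Sod2 in mitochondria. Catalase, the glutathione peroxidases and the peroxiredoxins then remove hydrogen peroxide. The glutathione peroxidases and peroxiredoxins do so at the expense of glutathione or thioredoxin, and some of them also remove lipid peroxides. Haem oxygenase breaks haem down and releases iron, and ferritin, a shell of heavy and light chains, stores that iron so that it cannot react with peroxide. In blood stem cells low levels of reactive oxygen are known to go with quiescence, and the injured brain after reperfusion is rich in reactive oxygen and in iron from haem.

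Levels of ferritin are set largely at translation, by an iron-responsive element at the start of the mRNA to which the iron regulatory proteins bind when iron is low, so ferritin protein need not follow its transcript. The elements of both chains are shown because they mark what the 2 mRNAs share although one was listed at 0 here. They were found in the GENCODE M21 transcripts, on GRCm38, at chr19:9982733-9982759 on the plus strand for Fth1 and at chr7:45459780-45459806 on the minus strand for Ftl1. The capitals mark the bulged C and the 6 bases of the loop.
Fth1: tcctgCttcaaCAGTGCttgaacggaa
Ftl1: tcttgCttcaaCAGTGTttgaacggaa
The 2 elements are identical at 25 of 27 bases. A C, 5 bases and the loop CAGTGN, with the 5 bases paired to those after the loop and read on 1 strand, were found in the first 200 bases of 17 of 58616 protein-coding transcripts (0.029%).

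Several members, Prdx1, Hmox1 and the ferritin chains among them, are known targets of NRF2, the transcription factor that responds to oxidative stress and binds antioxidant response elements. Promoter windows of 250 bases before an annotated start were available from RefSeq (GRCm38.p6) for 8 of the 10 members, 12 windows in all; Prdx6 and Hmox1 had none in the table used. The core TGACNNNGC on either strand was found in 2 of them, Prdx1 and Sod1, and in 10.2% of all 32851 windows. Both windows, chr4:116685349-116685598 for Prdx1 and chr16:90220512-90220761 for Sod1, lie on the plus strand of the genome, and the capitals mark the core, which reads on the minus strand in both.
Prdx1: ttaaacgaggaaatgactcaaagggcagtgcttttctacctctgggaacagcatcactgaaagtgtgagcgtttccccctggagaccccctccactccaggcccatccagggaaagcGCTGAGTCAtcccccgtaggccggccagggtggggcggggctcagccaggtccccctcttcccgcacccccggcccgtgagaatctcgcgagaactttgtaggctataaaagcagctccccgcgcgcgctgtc
Sod1: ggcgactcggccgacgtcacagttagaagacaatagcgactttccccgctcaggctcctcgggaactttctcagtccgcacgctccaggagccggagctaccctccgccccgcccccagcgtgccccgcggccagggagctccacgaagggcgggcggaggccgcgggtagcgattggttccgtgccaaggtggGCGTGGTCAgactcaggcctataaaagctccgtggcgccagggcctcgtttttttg
The first base of the core lies 133 bases before the start in Prdx1 and 56 bases before it in Sod1. The Prdx1 core overlaps a match to the AP-1 site TGANTCA at 131, and a second AP-1 match lies at 237; AP-1 matches were found in 6.75% of all windows. A match describes the letters and does not show that a factor binds there. Prdx1 and Sod1 had their highest values in different libraries, as given below.

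Naive libraries held 654458 to 2629529 reads behind the deposited values, and brain-recovered libraries 1129404 to 13424984. Naive replicates 1, 2 and 3 and brain-recovered replicate 12 stood apart, with 4380 to 7164 entries above 0 against 12066 to 23184 in the other 8. The 9 members with values followed this: 3 or 4 of them were above 0 in naive replicates 1 to 3 and 1 in brain-recovered replicate 12, against 5 to 9 in each of the other 8 libraries. A value of 0 is therefore given as listed, not as absence of the transcript. Values are called RPKM here: reads per length of gene model, scaled by a constant of each library. That constant did not fall as reads rose. It was 986 in naive replicate 3, with 654458 reads. In brain-recovered replicate 6 it was 2003 with 8940200 reads, and in replicate 10 it was 1150 with 13424984. The values are thus not scaled to the reads recovered, and levels, sums and differences below also carry the depth of each library. In such bulk libraries fewer cells of a type and less RNA per cell cannot be told apart.

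None of the 8 members tested differed between the groups past the threshold (limma on log2(RPKM + 1), Benjamini-Hochberg adjusted p below 0.05 over 17689 entries). Over all entries tested 0.367% were called higher and 0.0% lower in the brain-recovered group. Of the members, 3 (Ftl1, Gpx1 and Sod1) had an unadjusted p below 0.05 and were higher, against a background of 6.08%, and 0 were lower, against 0.175%. All 8 differences were above 0 in this fit, as were 74.5% of all entries, but those of Sod2, Prdx1 and Hmox1 turned negative after scaling to library totals and those of Cat and Prdx1 after quantile normalization. Their median was 1.62 against 0.64 over all entries tested. Without brain-recovered replicate 12, the library with fewest entries above 0, 3 members passed the threshold (Sod1, Gpx1 and Ftl1), in a fit that called 1.29% of all entries higher. That fit kept naive replicates 1, 2 and 3, which also had few entries above 0. Without all 4 libraries of fewer than 10000 entries above 0, no member passed. The limma adjusted p was then 0.977 for Sod1, Gpx1 and Ftl1, in a fit that called 0 entries. The labels name no batch. Among libraries numbered 1 to 6 the differences of Sod1, Gpx1 and Ftl1 were 6.06, 6.12 and 3.69, and among those numbered 7 to 12 they were 1.83, 1.94 and 4.38. In the former only Sod1 passed the threshold, in a fit that called 30.1% of all entries higher, and in the latter no member did. In the fit reported the limma errors rest wholly on a spread pooled over entries of like level, and the gene's own spread has no weight. An exact two-sided permutation test over the 924 assignments of libraries, which uses only the gene's own values, is therefore given beside them.

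**Figure D1:**
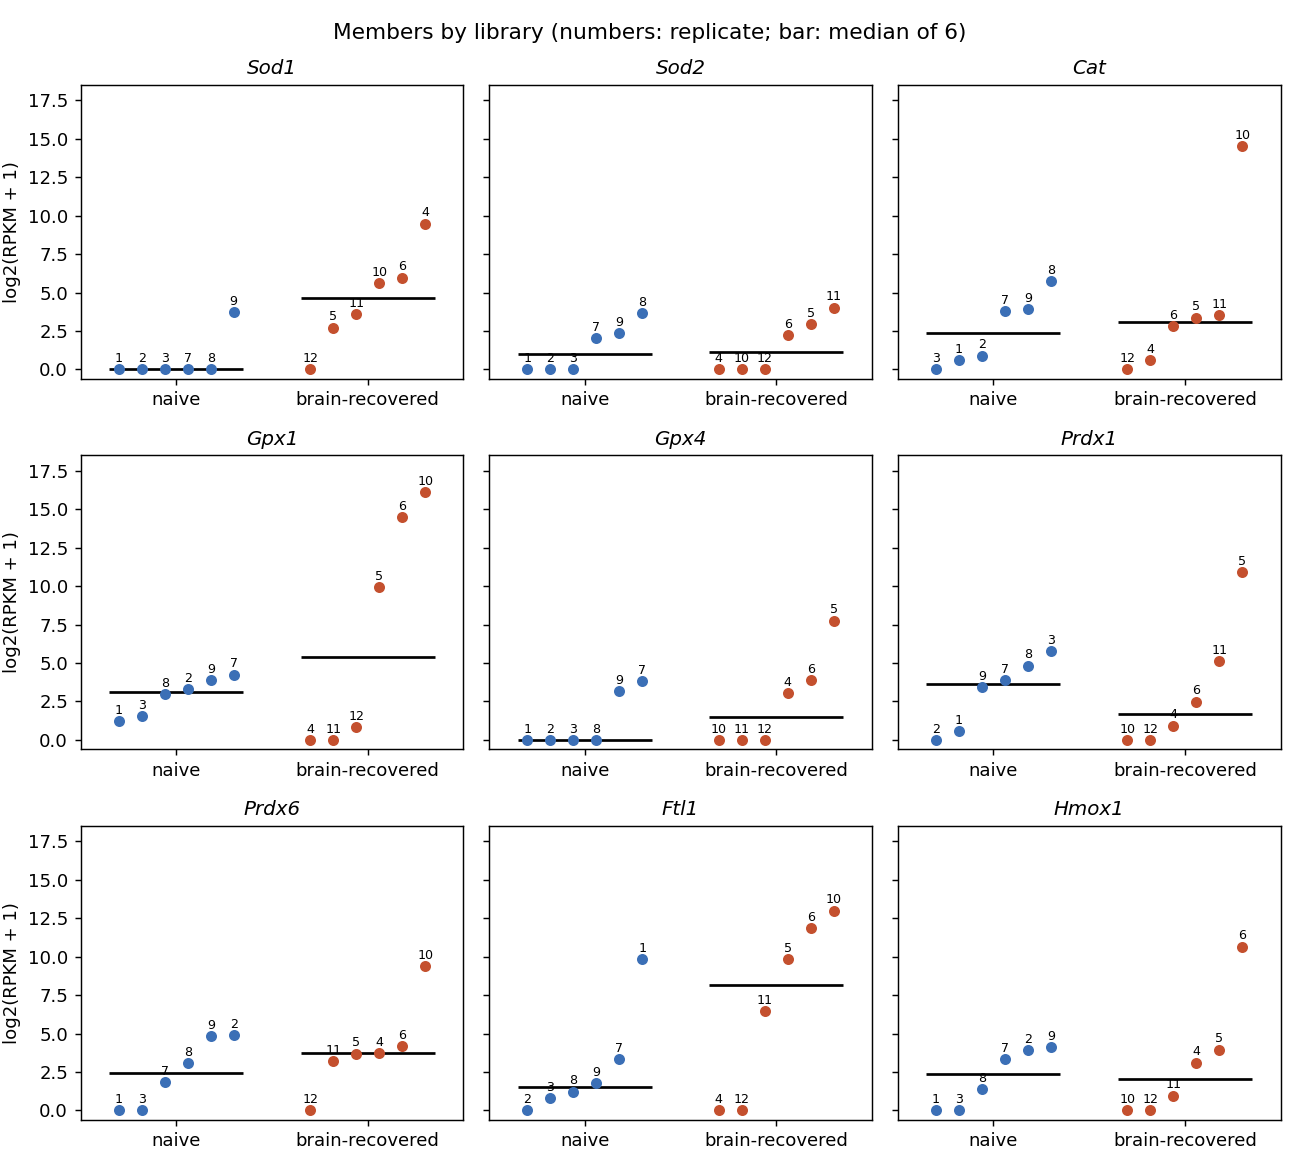
Values of the 9 members above 0 as log2(RPKM + 1), with 6 naive (blue) and 6 brain-recovered (red) libraries, the replicate number at each point and the median as a bar. The highest point of every member is a brain-recovered library (replicate 10 for 4 members, replicate 5 for 2), and the groups overlap for every member.

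Cytosolic superoxide dismutase, Sod1 (ENSMUSG00000022982, chromosome 16, 90220754 to 90226329), was listed at 0 in naive replicates 1, 2, 3, 7 and 8 and stood at 12.3 RPKM in naive replicate 9. In the brain-recovered group it stood at 712 in replicate 4, 5.57 in replicate 5, 62.0 in replicate 6, 48.1 in replicate 10, 11.2 in replicate 11 and 0 in replicate 12. It was thus above 0 in 1 of 6 naive and 5 of 6 brain-recovered libraries, with 3 of the latter above every naive one. The difference was 3.95 ± 1.24 (limma SE; 95% interval 1.52 to 6.38; adjusted p = 0.193; exact permutation p = 0.0411, n = 6 per group). Counts were low: 335 reads in brain-recovered replicate 4, at most 27 in any other library. Without brain-recovered replicate 12 the difference was 4.86 and passed the limma threshold (adjusted p = 0.0128). Without all 4 libraries of fewer than 10000 entries above 0 it was 4.24 and did not pass (limma adjusted p = 0.977). Its row length of 646 bases is near that of an annotated transcript of 641 bases and far from the 3970 bases of all its annotated exons. Of its neighbouring entries, Socs7 had its exact length and Sod2 did not.

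Mitochondrial superoxide dismutase, Sod2 (ENSMUSG00000006818, chromosome 17, 13006846 to 13040063), was listed at 0 in naive replicates 1 to 3 and read 3.15, 11.7 and 4.14 RPKM in naive replicates 7, 8 and 9. It was listed at 0 in brain-recovered replicates 4, 10 and 12 and read 6.82, 3.67 and 15.2 in replicates 5, 6 and 11. The groups covered nearly the same range, with 3 libraries of each above 0. The difference was 0.19 ± 0.98 (95% interval -1.74 to 2.11; limma adjusted p = 0.9996; exact permutation p = 0.827, n = 6 per group), an interval that leaves room for a change of either sign. Sod2 was the member spread most evenly, with 37.3% of its reads in its highest library. Its row length was 3824 bases against 10008 annotated, and neither neighbouring entry (Sod1 and Sod3) had its exact length.

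Catalase, Cat (ENSMUSG00000027187, chromosome 2, 103453849 to 103485160), breaks hydrogen peroxide down in peroxisomes. It read 0.546, 0.868 and 0 RPKM in naive replicates 1 to 3 and 12.8, 52.6 and 14.1 in naive replicates 7 to 9. In the brain-recovered group it read 0.526, 9.30 and 6.13 in replicates 4 to 6, 23563.5 in replicate 10, 10.7 in replicate 11 and 0 in replicate 12. A single library, brain-recovered replicate 10, thus held 53536 of its reads, or 99.6%, and stood 448 times above the next highest value. The difference of 1.65 ± 1.30 (95% interval -0.89 to 4.19; limma adjusted p = 0.961; exact permutation p = 0.660, n = 6 per group) turned to -0.43 without that library.

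Gpx1, the most abundant cellular glutathione peroxidase (ENSMUSG00000063856, chromosome 9, 108338903 to 108340343), read 1.37, 8.71 and 1.89 RPKM in naive replicates 1 to 3 and 18.0, 6.86 and 13.9 in naive replicates 7 to 9. It read 0, 976 and 22742 in brain-recovered replicates 4 to 6 and 70878, 0 and 0.760 in replicates 10 to 12. The brain-recovered libraries lay either far above every naive library (replicates 5, 6 and 10) or below all of them (replicates 4, 11 and 12). The difference was 4.03 ± 1.40 (95% interval 1.29 to 6.76; limma adjusted p = 0.322; exact permutation p = 0.221, n = 6 per group), and the SD of log2(RPKM + 1) was 1.23 in the naive and 7.53 in the brain-recovered group. Without brain-recovered replicate 12 the difference was 5.24 and passed the limma threshold (adjusted p = 0.0343). Without all 4 libraries of fewer than 10000 entries above 0 it was 4.4 and did not pass (limma adjusted p = 0.977). Its row length was 1041 bases against 1441 annotated, with both neighbouring entries at their exact length.

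Gpx4, which reduces lipid peroxides in membranes and holds back ferroptosis (ENSMUSG00000075706, chromosome 10, 80047166 to 80056439), was above 0 in only 5 libraries. It was therefore left out of the limma fit, which took entries of at least 1 RPKM in at least 6 libraries. It read 13.2 and 8.04 RPKM in naive replicates 7 and 9 and 0 in the other naive libraries. It read 7.17, 216 and 13.9 in brain-recovered replicates 4 to 6 and 0 in replicates 10 to 12. Its brain-recovered values thus came from 3 libraries, and 87.5% of its reads from replicate 5 (exact permutation p = 0.5, n = 6 per group).

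Prdx1, a cytosolic peroxiredoxin (ENSMUSG00000028691, chromosome 4, 116685544 to 116700822), whose promoter carries the core shown above, read 0.469, 0 and 53.8 RPKM in naive replicates 1 to 3 and 13.6, 27.6 and 9.76 in naive replicates 7 to 9. It read 0.903, 1897 and 4.61 in brain-recovered replicates 4 to 6 and 0, 33.4 and 0 in replicates 10 to 12. Brain-recovered replicate 5 was far above the rest, with 6416 reads or 94.2% of those of the gene, while the median was lower in the brain-recovered group (2.75 RPKM) than in the naive group (11.7 RPKM). The difference of 0.16 ± 1.28 (95% interval -2.36 to 2.68; limma adjusted p = 0.9996; exact permutation p = 0.955, n = 6 per group) was -1.37 without that library, and it was also negative under 3 other scalings or pseudocounts.

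Prdx6, a peroxiredoxin that acts on phospholipid peroxides (ENSMUSG00000026701, chromosome 1, 161240112 to 161251219), read 0, 28.4 and 0 RPKM in naive replicates 1 to 3 and 2.55, 7.30 and 27.9 in naive replicates 7 to 9. It read 12.3, 12.01 and 16.9 in brain-recovered replicates 4 to 6 and 675, 8.20 and 0 in replicates 10 to 12. Apart from replicate 10, which held 82.5% of its reads, the brain-recovered values lay within the naive range. The difference was 1.60 ± 1.29 (95% interval -0.93 to 4.13; limma adjusted p = 0.961; exact permutation p = 0.346, n = 6 per group). Its row length of 3671 bases equals that of the joined exons of some of its 9 annotated transcripts, short of 4804 bases for all of them. Every combination of them was tried, and how often one would match by chance was not tested. Of its neighbouring entries, Prdx5 had its exact length and Prdx6-ps2 did not.

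The ferritin light chain Ftl1 (ENSMUSG00000050708, chromosome 7, 45457944 to 45459884) read 924, 0 and 0.736 RPKM in naive replicates 1 to 3 and 8.98, 1.33 and 2.46 in naive replicates 7 to 9. It read 0, 921 and 3736 in brain-recovered replicates 4 to 6 and 8154.5, 87.5 and 0 in replicates 10 to 12. Brain-recovered replicates 5, 6, 10 and 11 were above every naive library but replicate 1, and the other two were listed at 0. The difference was 4.03 ± 1.39 (95% interval 1.30 to 6.77; limma adjusted p = 0.3197; exact permutation p = 0.184, n = 6 per group). Without brain-recovered replicate 12 it was 5.41 and passed the limma threshold (adjusted p = 0.0193). Without all 4 libraries of fewer than 10000 entries above 0 it was 6.12 and did not pass (limma adjusted p = 0.977). Entries named as copies of Ftl1 took few reads: Ftl1-ps1 reached 2.17 RPKM, and Ftl1-ps2 and Ftl2-ps were listed at 0.

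The ferritin heavy chain Fth1 (ENSMUSG00000024661, chromosome 19, 9980598 to 9985098), the chain that oxidises iron, gave no result. Its entry is 1 of 14536 listed at 0 throughout, 14185 of which have their label cells shifted by a column. With no value above 0 the length behind the entry cannot be recovered, and neither the level nor a difference can be read from it. The entry labelled Fthl17e, a ferritin heavy chain-like gene of the X chromosome, was looked at after its values were seen. Its row length is 866 bases against 841 annotated. It read at most 14.5 RPKM in the naive libraries and 11.98 to 51740.5 RPKM in the brain-recovered ones, a difference of 7.76 ± 1.41 (limma adjusted p = 0.000169). Like the 5 members whose length differs from the annotation, it kept its label because no rule excluded it, and which gene it holds is not certain.

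Hmox1, the inducible haem oxygenase (ENSMUSG00000005413, chromosome 8, 75093621 to 75100589), read 0, 14.3 and 0 RPKM in naive replicates 1 to 3 and 9.28, 1.65 and 16.5 in naive replicates 7 to 9. It read 7.63, 14.6 and 1603 in brain-recovered replicates 4 to 6 and 0, 0.960 and 0 in replicates 10 to 12. Brain-recovered replicate 6 held 1730 reads, 91.5% of those of the gene, and no other brain-recovered library passed the highest naive value. The difference was 0.98 ± 1.24 (95% interval -1.46 to 3.41; limma adjusted p = 0.986; exact permutation p = 0.721, n = 6 per group) and turned to -0.53 without that library. Its row length of 2161 bases is longer than the 1751 bases of all its annotated exons, so its label is not certain. Both neighbouring entries had their exact length.

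**Figure D2:**
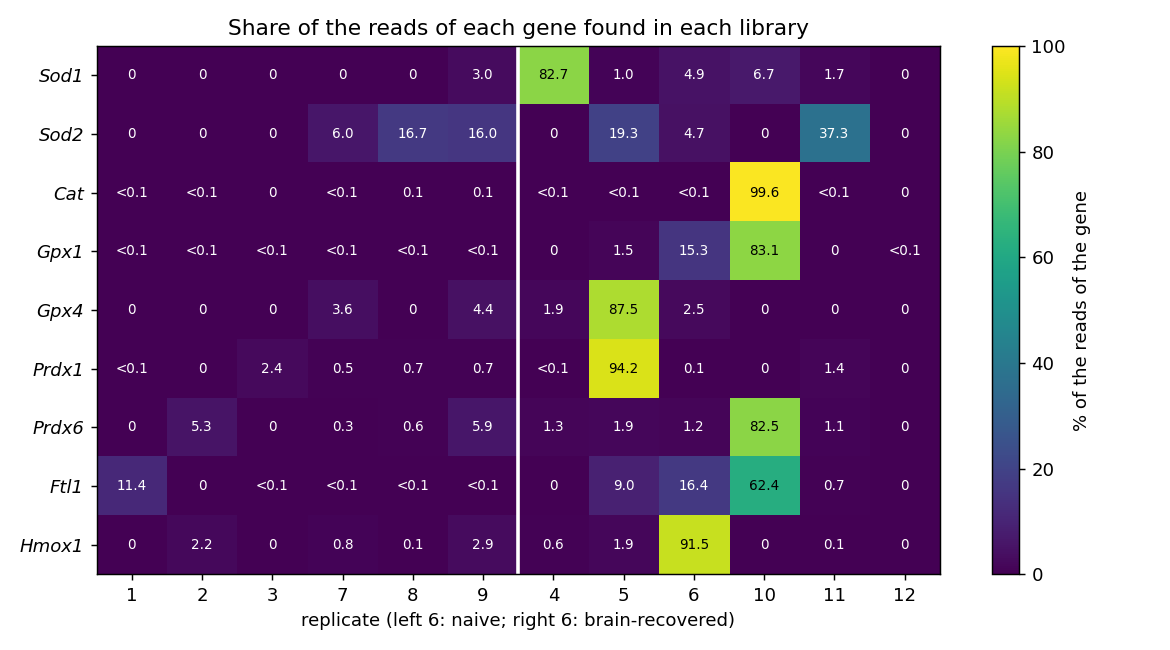
Share of the reads of each member (rows) found in each library (columns, 6 naive left and 6 brain-recovered right), in percent. Between 37.3% (Sod2) and 99.6% (Cat) of the reads of a member came from 1 library, brain-recovered replicate 10 for Cat, Gpx1, Prdx6 and Ftl1. Shares are not corrected for depth. Replicate 10 was also the deepest library, with 13424984 reads against 654458 to 8940200 in the others.

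The highest library of each of the 9 members with values was brain-recovered, replicate 10 for 4 of them, replicate 5 for 2 and replicates 4, 6 and 11 for 1 each. Among the 8 tested this held for 8, against 55.8% of all entries tested. In 5 of the 8 the highest library stood over 10 times above the second, against 7.69% of all entries, and in 6 of the 8 at least 1 brain-recovered library stood over 10 times above the highest naive value, against 9.98%. No member had every brain-recovered library above every naive one, against 0.147% of all entries. The members together summed to 52.3 to 926 RPKM in the naive libraries, the highest being replicate 1 through Ftl1. In the brain-recovered libraries they summed to 741, 4058, 28188, 103319, 167 and 0.760 RPKM in replicates 4, 5, 6, 10, 11 and 12, so that both the highest and the lowest sums lay in that group. The entry labelled Actb, a cytoskeletal actin outside the members, read 6.67 to 128 RPKM in the naive libraries. In the same brain-recovered replicates it read 3635, 6403, 17881, 39162, 1518 and 61.4 RPKM, the same order of libraries. A pattern of this kind was thus not particular to the members, and its cause was not tested.

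Ordered by median level per length in the naive group, Prdx1 (11.7 RPKM), Gpx1 (7.79), Cat (6.83), Hmox1 (5.47) and Prdx6 (4.92) came before Ftl1 (1.90), Sod2 (1.57) and Sod1 and Gpx4 (both 0). In the brain-recovered group the order of medians began with Ftl1 (504 RPKM), Gpx1 (488) and Sod1 (29.7) and went on with Prdx6 (12.2), Cat (7.72), Hmox1 (4.29), Gpx4 (3.59), Prdx1 (2.75) and Sod2 (1.83). The ranges of neighbours in either order overlapped, so neither order is firm. Values of this size were also listed in the naive libraries for genes of other cell types. In naive replicates 7, 8 and 9 Mbp read 15.0, 18.7 and 17.1 RPKM, Map2 5.85, 12.4 and 16.5, and Olig1 0, 0.823 and 14.9. The entry labelled Actb read 6.99, 6.67 and 14.0 RPKM there. Whether naive medians of this size stand above background was not tested.

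**Figure D3:**
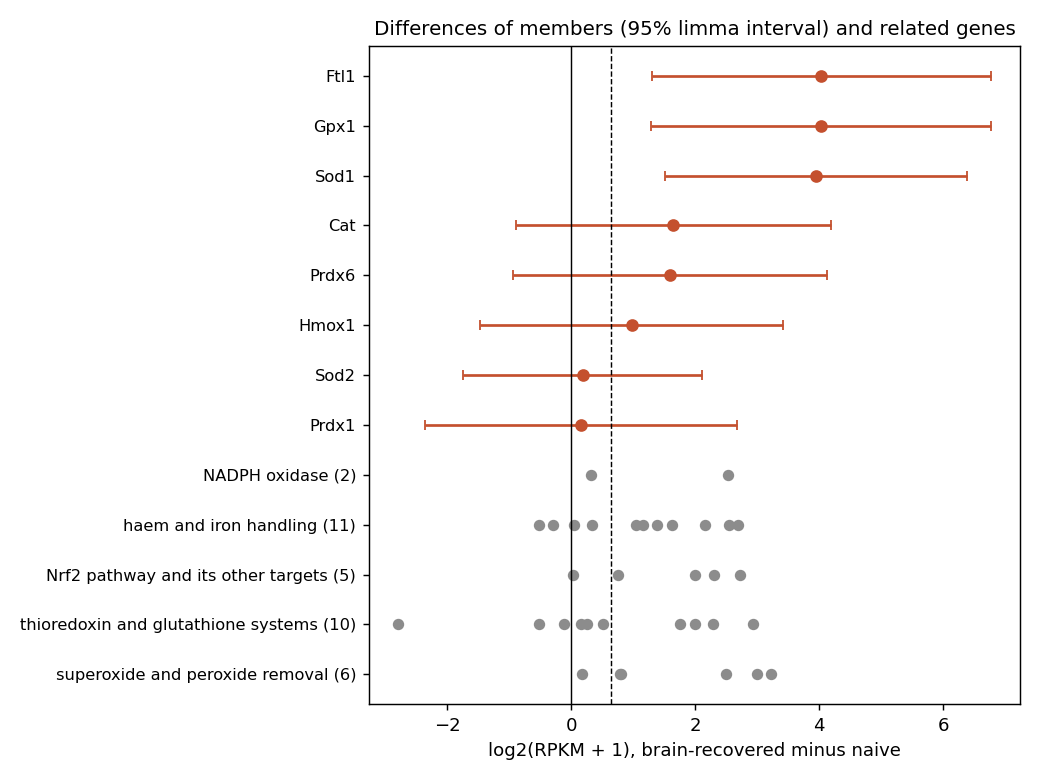
Difference in log2(RPKM + 1), brain-recovered minus naive, for the 8 members tested (red, with the 95% limma interval) and for 34 related genes by list (grey points). The dashed line is the median of all entries tested, 0.64. The intervals of Ftl1, Gpx1 and Sod1 lie above 0, and no gene shown passed the adjusted threshold. The intervals rest on a spread pooled over entries, not on the gene's own. The exact permutation p was 0.184 for Ftl1, 0.221 for Gpx1 and 0.0411 for Sod1.

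Genes of the same pathways were counted from lists of 54 genes, of which 40 had a usable label, 8 were listed at 0 and 34 were tested. None passed the threshold (limma adjusted p below 0.05). With an unadjusted p under 0.05 there were 7 higher and 1 lower, and in this fit 29 of the 34 differences were above 0, with a median of 1.10. Over all entries tested these were 6.08% higher and 0.175% lower, with 74.5% above 0 and a median of 0.64, and the counts per list below stand against the same shares. Among other superoxide and peroxide removing enzymes 3 of 6 were higher at that level. Prdx2, a peroxiredoxin abundant in red cells, had the largest difference, 3.22 ± 1.33 (adjusted p = 0.595), and ran from 0 to 34.0 RPKM in naive and from 0 to 503 in brain-recovered libraries. Gpx3, the secreted glutathione peroxidase, had the smallest, 0.17 ± 1.09.

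In the thioredoxin and glutathione systems 1 of 10 was higher and 1 lower by that unadjusted measure. Gsr, which restores glutathione, had a difference of 2.94 ± 1.35 (limma adjusted p = 0.699), with 20525 RPKM in brain-recovered replicate 10 and no more than 82.2 elsewhere. Slc7a11, the cystine importer that feeds glutathione synthesis, stood at the other end, with a difference of -2.78 ± 1.33 (limma adjusted p = 0.738). It read 15.9 to 201 RPKM in the naive libraries and 0 to 14.3 in the brain-recovered ones, so its groups did not overlap. Every brain-recovered library lay below every naive one, as in 0.0226% of all entries tested. The row length of Slc7a11 was 11245 bases against 13922 annotated, which does not establish its label. In the NRF2 list 1 of 5 was higher at that level. Sqstm1, the autophagy receptor p62, had a difference of 2.73 ± 1.27 and read 12570 RPKM in brain-recovered replicate 10 and at most 14.7 elsewhere. Bach1, the repressor of Hmox1, differed by 0.03 ± 1.27. The entries labelled Nfe2l2, which encodes NRF2, and Nqo1 lie in stretches of displaced labels and were not used.

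In haem and iron handling 1 of 11 was higher at an unadjusted p below 0.05. Blvrb and Blvra, which encode the biliverdin reductases that act after haem oxygenase, gave the largest difference (2.70 ± 1.25) and the smallest (-0.51 ± 1.24). Blvra had its exact length, but Blvrb had a row length of 1414 bases against 2782 annotated, which does not establish its label. Of the NADPH oxidase subunits, which make superoxide in phagocytes, only 2 could be tested. Cybb, the catalytic subunit, differed by 2.53 ± 1.25 and read 1834 RPKM in brain-recovered replicate 10 and at most 26.3 elsewhere. Rac2 differed by 0.33 ± 1.14, with a row length of 3036 bases against 3103 annotated. Gsr, Sqstm1 and Cybb were thus highest in the library that also held most reads of Cat, Gpx1, Prdx6 and Ftl1, which was the deepest library.

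The same libraries differed in cell type markers. Brain-recovered replicate 10 carried the highest sum of microglia and macrophage markers (21258 RPKM, against 1.67 to 139 in all other libraries), with C1qa at 19416 RPKM and C1qc, Cx3cr1 and Tmem119 at 0 among the 8 of 9 markers with a usable label. It also carried the highest sum of blood monocyte markers (11165 RPKM, against 0 to 1154), with Itgam, which encodes the CD11b used to remove cells, at 10707 RPKM, Ly6c2 at 409, Adgre1 at 2.48, Cd68 at 0.915 and Cd14, Ccr2 and Mrc1 at 0. Oligodendrocyte markers summed to 6184, 7457 and 29179 RPKM in brain-recovered replicates 4, 5 and 6, against 16.6 to 328 in the other 9 libraries, and astrocyte markers to 1167, 1236 and 3438 against 29.7 to 147. Granule genes of myeloid progenitors summed to 1.31 to 27.9 RPKM in the naive and 122 to 94951 RPKM in the brain-recovered libraries (n = 6 per group, exact permutation p = 0.0022, the smallest possible). The lowest brain-recovered sum, that of replicate 12, was nearly all Ctsg (122 RPKM), with Mpo at 0.231, Prtn3 at 0.457 and Elane and Srgn at 0. The full separation of the groups thus rests on 1 gene in that library. Endothelial markers (2896 RPKM) and erythroid markers (2328 RPKM) were highest in brain-recovered replicate 6, the library with most Hmox1, and neuronal markers summed to at most 448 RPKM in any library. Stem and progenitor markers summed to 43.8 to 86.1 RPKM in the naive libraries, with Kit at 0 to 11.03 and Cd34 at 0 in 3 of the 6, and to 48.4 to 35167 in the brain-recovered ones, where Ly6a reached 35095 in replicate 6, Kit stayed at 0 to 13.9 and Cd34 was 0 in 4 of the 6. The part of other cell types in the values of the members was not tested.

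As Fth1 had no values and no member was called, the likeness of patterns was taken for Ftl1, a choice made after the values were seen. Among 10732 other entries of exact length, the patterns of log2(RPKM + 1) over the 12 libraries most like that of Ftl1 belonged to Capg (Pearson r of 0.898), Calr (0.881), Znhit1 (0.859), Gm13626 (0.849) and Mpo (0.849). All 12 points share libraries that differ in depth, and the high values of Ftl1 lie in brain-recovered replicates 5, 6, 10 and 11 and in naive replicate 1, where Znhit1 was also high (444 RPKM). This is a description without a test.

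The series title names metallothionein I, another metal-binding protein of the stress response, encoded by Mt1. The entries labelled Mt1, Mt2 and Mt3 have row lengths of 681, 204 and 1545 bases, where the labelled genes have 1246, 588 and 1066 bases of annotated exons. They equal the lengths of the mitochondrial genes mt-Atp6, mt-Atp8 and mt-Co1. The same holds for 9 of 9 consecutive labels from Mt1 on, whose lengths follow the mitochondrial genes from mt-Atp6 to mt-Nd4 in alphabetical order, against 0.579% of all entries with the length of any mitochondrial gene. The entry labelled Mt1 read 925 to 8319 RPKM in the naive and 1249 to 1068255 RPKM in the brain-recovered libraries, and the entry labelled mt-Atp6 has a row length of 1824 bases. No value is therefore given for Mt1, Mt2 or Mt3.

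**Figure D4:**
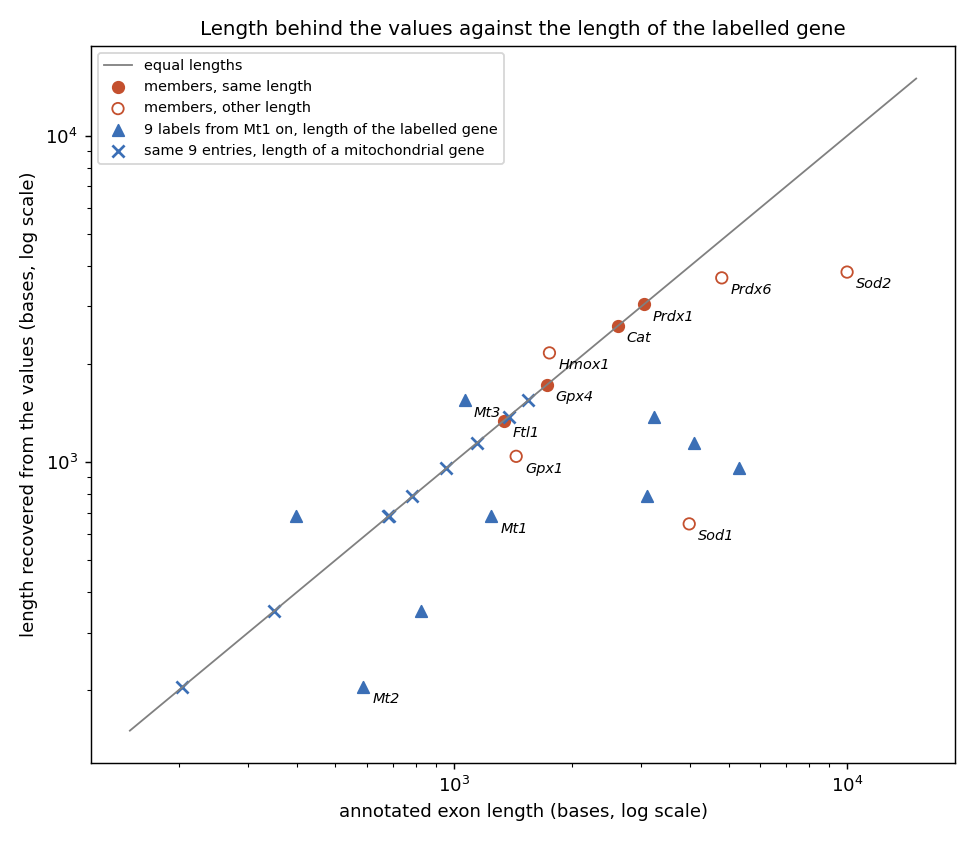
Length recovered from the values of an entry against the annotated exon length of the labelled gene, both in bases on log scales, for the 9 members with values and for 9 consecutive labels from Mt1 on (blue triangles). The 4 members of exact length lie on the line of equal lengths, while the blue crosses show that the 9 entries from Mt1 on lie on it for the lengths of mitochondrial genes.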

How the data were processed

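Expression was analysed in 12 libraries, grouped by their titles. Per the labels' protocols, cDNA was amplified from lysate with the SMARTer Ultra Low Input kit (version 3) and made into Nextera XT libraries. Trimmomatic 0.32 and the build GRCm38 were used, per the submitters' processing notes; for the aligner, the counter and the annotation nothing is given in the sources. The deposited values carry no named unit and were treated as RPKM, since within an entry each is a whole number of reads times a library constant over a shared length (24387 of 24388 entries above 0, tolerance 0.0005 of a read, widened slightly for high counts). Depth was the sum of these reads. Reads are PCR copies without molecular identifiers, not independent molecules.

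The recovered length was compared with the exon length in GENCODE M21. Of 22545 entries that could be checked (at least 3 values above 0), 10733 (47.6%) had the exact length, 9691 were not contradicted, and the rest were set aside: 1712 lay in runs of displaced labels, 334 had the length of a gene within 40 places and 75 were over 2 times longer. Outside those runs and neighbours, a length shorter than annotated was never excluded, so an entry not contradicted may hold another gene. This label check was chosen after seeing the values. Members and gene lists were chosen with earlier results of these data known.

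Groups were compared with R 4.3.3 and limma 3.58.1 (trended eBayes, no covariates) on log2(RPKM + 1), over the 17689 entries of at least 1 RPKM in at least 6 libraries. No scaling was added to the authors' own, which does not set the libraries to equal depth in the reads recovered. Differences are on the log2(RPKM + 1) scale, which understates changes of low genes. Exact permutation tests used mean log2(RPKM + 1). The length recovery and the fit were tested on simulated data. Tables and plots were made in Python 3.11.15 with pandas 2.3.3, numpy 2.4.6, matplotlib 3.10.9 and scipy 1.17.1. All 10 members are named; of related genes, those with the largest and smallest difference per list, entries labelled as copies of a member, and Mt1 and Mt2. Fthl17e, Mt3, Nfe2l2 and Nqo1 fall outside this rule and were named after their values were seen. Entries without a usable label stayed in the fit. One marker of the microglia list is not reported here and was left out of its sum.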

Additional observations from a re-analysis of the deposited data

Results flagged for a closer look

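Of 18 groups of 6 libraries examined (9 members in each group), 4 held a library far from the other 5 on the log2(RPKM + 1) scale. Chance gives about 1 in 20 for evenly spread values, which does not hold for groups with many libraries at 0; over all entries tested 8.95% of groups held such a library. Sod1 stood at 12.3 RPKM in naive replicate 9, with the other 5 naive libraries listed at 0, where any sixth value above 0 would stand out. Cat stood at 23563.5 RPKM in brain-recovered replicate 10, with the next library of the group at 10.7. Ftl1 stood at 924 RPKM in naive replicate 1, with the next naive library at 8.98. Hmox1 stood at 1603 RPKM in brain-recovered replicate 6, with the next library of the group at 14.6.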

How the results depend on the processing

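The count of members called was 0 in the fit reported and in all alternatives but these: it was 3 without brain-recovered replicate 12 (Sod1, Gpx1 and Ftl1), so that leaving out 1 library each gave 0 to 3, and 1 among libraries numbered 1 to 6 alone (Sod1, a difference of 6.06, limma adjusted p = 0.0381, in a fit that called 30.1% of all entries). The count of related genes called was 0 under every alternative, added after the data were seen, except among libraries 1 to 6 alone, where it was 10; in that fit 5320 of all 17689 entries were called, against 65 in the fit reported, 229 without brain-recovered replicate 12, 16 after quantile normalization, 0 after scaling to library totals, 0 without the 4 libraries of fewer than 10000 entries above 0 and 0 among libraries 7 to 12 alone. The median difference of all entries moved from 0.64 to 0.21 after quantile normalization, -0.33 after scaling to totals, -0.03 without those 4 libraries, 2.35 among libraries 1 to 6 and -1.07 among libraries 7 to 12. All these fits used the same 17689 entries.

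Sod1, Gpx1, Prdx6 and Ftl1 kept a difference above 0 under every alternative that tested them, but some were much smaller. Prdx6 fell to 0.10 after scaling to totals and 0.18 after quantile normalization. After scaling to totals Sod1, Gpx1 and Ftl1 fell to 2.62, 2.34 and 2.51 (limma adjusted p = 0.9996 for each). The filter of at least 10 RPKM in at least 6 libraries left only Prdx6 among the members. Leaving out 1 library each, the differences ran from 2.96 to 4.86 for Sod1, -0.31 to 0.65 for Sod2, -0.43 to 2.48 for Cat, 2.18 to 5.40 for Gpx1, -1.37 to 0.80 for Prdx1, 0.53 to 2.41 for Prdx6, 2.81 to 5.44 for Ftl1 and -0.53 to 1.60 for Hmox1. Signs also turned for Sod2 to -0.17 after scaling to totals, -0.85 without the 4 libraries and -1.35 among libraries 7 to 12. They turned for Cat to -0.12 after quantile normalization and -0.32 with sample weights. For Prdx1 they turned to -0.32 with a pseudocount of 0.1, -0.09 after quantile normalization, -0.92 after scaling to totals, -0.16 without the 4 libraries and -2.34 among libraries 7 to 12. For Hmox1 they turned to -0.17 after scaling to totals and -2.64 among libraries 7 to 12. The cause was not tested. No paired analysis was possible because the 2 groups share no replicate number. Depth limits Sod2, with at most 56 reads in a library, and Sod1, with at most 27 in all libraries but 1.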
